A study of Mus musculus with 8 samples.

Results

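The 10 desmosome genes described here are the plakophilins Pkp1, Pkp2, Pkp3 and Pkp4, desmoplakin (Dsp), plakoglobin (Jup), the desmosomal cadherins Dsg2, Dsc2 and Dsc3, and Perp. They were named as a list of symbols, and all 10 were found among the 52636 genes of the count tables. The samples are mouse malignant mesothelioma (MM), a cancer of the mesothelium around lung and abdomen, from conditional mouse models. The double knockout group (2 samples) carries conditional knockouts of Nf2, which encodes the Hippo regulator merlin, and Cdkn2a, which encodes cell cycle inhibitors. The triple knockout group (6 samples) carries the same knockouts of Nf2 and Cdkn2a and in addition that of Bap1, a deubiquitinase of histone H2A, so the only labelled difference between the groups is Bap1. The protocols describe cells grown in RPMI 1640 with serum and insulin. The driver and delivery of Cre, the age and strain of the mice and whether each sample is 1 culture or 1 tumour are not stated in these sources, so the p-values measure only the spread between these samples.

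Desmosomes are spot-like junctions that tie the intermediate filaments of neighbouring cells together. The desmosomal cadherins (desmogleins and desmocollins) cross the membrane and bind each other between cells. Inside the cell their tails hold plakoglobin and the plakophilins, and desmoplakin links this plaque to keratin filaments, or to desmin in heart muscle. Plakoglobin also serves in adherens junctions, where it can take the place of beta-catenin. Perp is a small membrane protein of desmosomes and a known target of p53 and p63. Desmosomes are abundant in epidermis and heart and are a classical ultrastructural feature of mesothelial cells.

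Total counts per sample ran from 26847202 to 32082535. Double sample 1 stood apart: its scaling factor (TMM, which corrects library size for a few dominant genes) was 0.771, against 0.994 to 1.1 elsewhere, and mitochondrial genes took 4.04% of its counts against 1.16% to 2.33%. Bap1 itself, counted per gene, reads outside the deleted part included, stood at 105 and 71.1 CPM (read counts scaled to a common library size with the TMM factor) in the double group, against 43.1 to 72 CPM in the triple group (edgeR quasi-likelihood test, Benjamini-Hochberg adjusted p = 0.122), so it checks the labels only weakly. Among 12 mesothelial markers Msln was counted in every sample, at 12.6 to 342 CPM. The defining markers Wt1 and Upk3b reached 33.2 and 173 CPM in triple sample 3 and at most 1.76 and 0.364 CPM in the other 7 samples, and Calb2 had a count in only 1 sample. Of the 10 markers tested 1 was called higher in the triple samples and 0 lower, against 2.94% and 5.41% of all genes tested. None was called without triple sample 1, 2, 4 or 6, with total counts for scaling, or with a term for the description codes given below. Their median log2 fold change was 4.04, and 2.08 over the 8 tested without triple sample 3. The 12 markers summed to 322 and 429 CPM in the double group and to 109 to 1090 CPM in the triple samples. Leukocyte markers summed to 761 to 2470 CPM and endothelial markers to 198 to 424 CPM, so transcripts typical of other cell types were counted in all 8 samples. Which cells they came from was not tested. In such bulk samples fewer cells of a type and less RNA per cell cannot be told apart.

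The members belong to 1 junction by function, and the set was chosen by its CPM in the double against the triple samples, that is, with this comparison known. The log2 fold changes below, given as triple minus double with their standard error (SE), therefore describe the members and test nothing. Of the 10 members 4 passed an adjusted p of 0.05 over all genes tested, and all of these (Pkp1, Pkp2, Jup and Perp) were lower in the triple samples. Over the 17709 genes tested, 8.35% passed in either direction, 5.41% lower and 2.94% higher, and nothing is read from the members' share. Without double sample 1 only Pkp1 of the members passed. The median log2 fold change was -1.27 over the members and 0.02 over all genes tested. In 3 members (Pkp1, Pkp2 and Jup) every triple sample lay below both double samples, against 24.1% of all genes tested whose groups did not overlap in either direction (11.4% with the triple samples below and 12.8% above). The plot of levels by sample shows that the members did not share a single pattern.

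**Figure D1:**
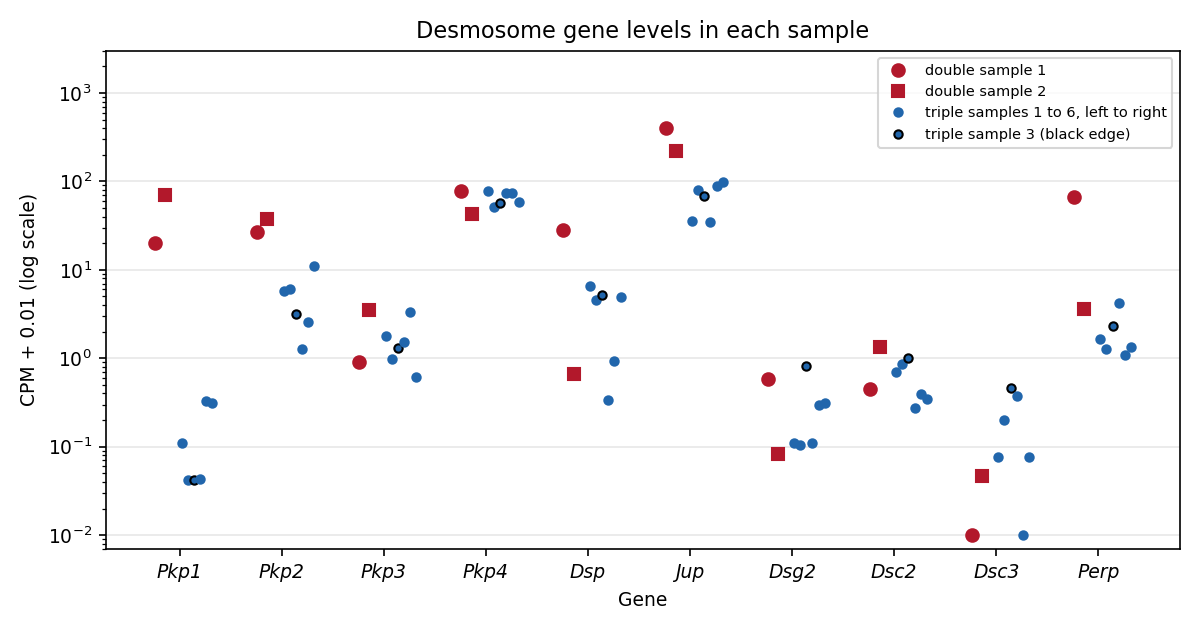
Level of each desmosome gene in CPM, with 0.01 added and on a log scale, in the 2 double samples (red) and the 6 triple samples (blue, in order from 1 to 6). Pkp1, Pkp2 and Jup have both double samples above all 6 triple samples, Dsp and Perp are highest in double sample 1, and the 3 cadherins stay at or below 1.33 CPM throughout.

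Among the plaque proteins, Pkp1 (chromosome 1, 135871395 to 135919207 on GRCm38, minus strand) separated the groups most widely. Plakophilin 1 is the main plakophilin of the upper epidermis, where it stabilises desmosomes, and it also occurs in nuclei. Pkp1 stood at 20.3 and 70.5 CPM in the double group (samples 1 and 2), against 0.0995, 0.0316, 0.0321, 0.0331, 0.317 and 0.3 CPM in triple samples 1 to 6. Both double samples were high, and the lower of them was 64 times the highest triple sample. In counts, 2455 reads fell on Pkp1 in the 2 double samples and 25 in all 6 triple samples, of which triple samples 5 and 6 held 10 and 9. The log2 fold change was -8.34 ± 0.82. It was -6.50 among samples with the description code SN930 (double sample 1 and triple samples 4 to 6) and -10.26 among the samples with other codes (double sample 2 and triple samples 1 to 3), each of which carries a code of its own. The labels do not say what these codes mean.

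Pkp2 (chromosome 16, 16213318 to 16272712, plus strand) encodes the plakophilin of heart and simple epithelia. It stood at 26.7 and 37.6 CPM in the double group, against 5.77, 6.01, 3.14, 1.26, 2.53 and 11 CPM in triple samples 1 to 6. The groups did not overlap, but the gap was narrower than for Pkp1, and triple sample 6 came within 2.42-fold of double sample 1. The log2 fold change was -2.70 ± 0.62, with -2.41 among SN930 samples and -2.93 among the others. Pkp2 lay just inside the adjusted threshold. It was outside it without triple sample 1, 2, 3 or 5, with total counts for scaling and with the description code as a term.

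Pkp3 and Pkp4 did not part the groups. Pkp3 (chromosome 7, 141078218 to 141090510, plus strand), a plakophilin of most epithelia, stood at 0.89 and 3.54 CPM in the double group, against 0.6 to 3.29 CPM in the triple samples. Those ranges lie almost on top of each other, with a log2 fold change of -0.49 ± 0.68. Pkp4 (chromosome 2, 59160850 to 59355208, plus strand), also called p0071, is found at adherens junctions as well as desmosomes and acts in cell division. It stood at 76.9 and 42.6 CPM in the double group, against 78.7, 50.9, 56.3, 74.3, 74.4 and 58.7 CPM in triple samples 1 to 6. Its log2 fold change of 0.14 ± 0.27 was smaller than its error. Without double sample 2 the signs of both changed, to 0.84 for Pkp3 and -0.21 for Pkp4.

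Both the sum of the plakophilins and its make-up differed between the groups. Set per kilobase (kb) of merged exon, which allows levels of different genes to be compared, the 4 plakophilins summed to 22.7 and 29.5 CPM per kb in the double samples and to 10.3 to 15.4 CPM per kb in the triple samples. Pkp4 made up 59.3% and 25.3% of that sum in double samples 1 and 2, and 81.8% to 95.2% in the triple samples. The share of Pkp1 was 17.8% and 47.6% in the double samples and at most 0.475% in the triple samples. In double sample 2 alone, Pkp1 was the most abundant plakophilin.

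**Figure D2:**
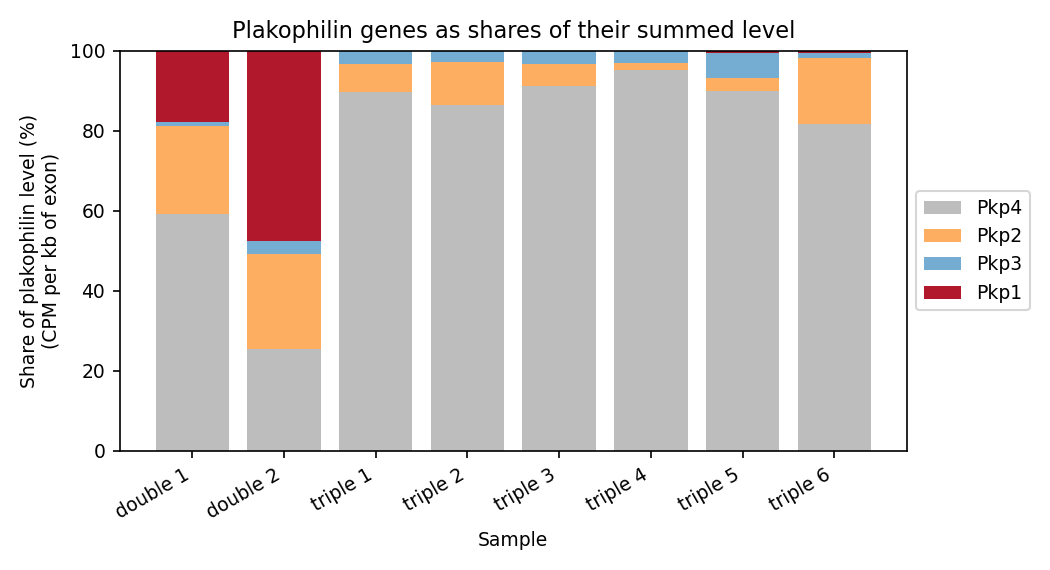
Share of each plakophilin gene in the summed plakophilin level (CPM per kb of exon, in %) in each sample. Pkp4 (grey) fills 81.8% to 95.2% of the bar in the triple samples, while Pkp1 (red) and Pkp2 (orange) take larger shares in the 2 double samples.

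Jup (chromosome 11, 100368958 to 100397763, minus strand) was the most abundant plaque gene of the double samples. It stood at 404 and 218 CPM in the double group, against 35.2, 80.9, 67.8, 35, 87.9 and 98.8 CPM in triple samples 1 to 6. The groups did not overlap: double sample 2 was 2.2 times triple sample 6, the highest of the triple samples. The log2 fold change was -2.20 ± 0.41, with -2.43 among SN930 samples and -1.83 among the others. Ctnnb1, which encodes the related beta-catenin, stood at 474 and 613 CPM in the double group, against 582 to 769 CPM in the triple samples (log2 fold change 0.35 ± 0.20, edgeR adjusted p = 0.287). Per kb of exon the level of Jup was 68.7% and 28.6% of that of Ctnnb1 in the double samples and 3.67% to 11.7% in the triple samples.

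Dsp (chromosome 13, 38151294 to 38198577, plus strand) behaved differently from the rest of the plaque. It stood at 28 CPM in double sample 1 and at 0.649 CPM in double sample 2, a 43.1-fold gap within 1 group. Triple samples 1 to 6 stood at 6.5, 4.49, 5.2, 0.331, 0.918 and 4.86 CPM, so double sample 2 lay among the lowest of them. The log2 fold change of -1.94 ± 1.15 rested on double sample 1: without it the value was 2.51, and it was -3.76 among SN930 samples and 3.03 among the others. An annotated transcript on the opposite strand, Gm10129, overlaps an exon of Dsp, and at most 1 read per sample was assigned to it.

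Upstream sequence was available from RefSeq (GRCm38.p6) for 3 of the 10 members, Jup, Dsp and Pkp4. The 250 bases before the annotated start are shown for each of these 3 genes. Their patterns above differ: Jup was higher in both double samples, Dsp in 1 of them and Pkp4 in neither. Capitals mark the GC box (GGGCGG, or CCGCCC where it lies on the opposite strand), a common binding site of Sp factors. The windows are chr11:100397791-100398040 (minus strand), chr13:38151044-38151293 (plus strand) and chr2:59160600-59160849 (plus strand), each written 5′ to 3′ on the strand of the gene.
Jup: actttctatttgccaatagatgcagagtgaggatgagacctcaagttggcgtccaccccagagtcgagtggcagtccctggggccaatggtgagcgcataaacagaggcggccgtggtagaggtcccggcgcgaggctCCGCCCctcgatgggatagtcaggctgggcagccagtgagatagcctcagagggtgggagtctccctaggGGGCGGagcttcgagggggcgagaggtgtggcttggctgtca
Dsp: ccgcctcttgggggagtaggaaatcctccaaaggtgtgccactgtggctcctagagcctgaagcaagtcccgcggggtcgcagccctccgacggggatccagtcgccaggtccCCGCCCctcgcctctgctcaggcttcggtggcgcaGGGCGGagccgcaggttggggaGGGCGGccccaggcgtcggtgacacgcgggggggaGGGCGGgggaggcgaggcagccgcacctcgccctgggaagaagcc
Pkp4: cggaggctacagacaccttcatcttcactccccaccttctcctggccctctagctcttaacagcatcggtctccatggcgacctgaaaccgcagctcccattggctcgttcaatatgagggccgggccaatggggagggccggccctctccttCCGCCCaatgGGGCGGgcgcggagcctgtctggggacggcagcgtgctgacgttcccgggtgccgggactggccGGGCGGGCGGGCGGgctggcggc
The Jup window held 2 GC boxes, at 112 and 42 bases before the start, the Dsp window 4 and the Pkp4 window 5, of which 3 overlap each other. Of all 32851 promoter windows of this length, 32.7% held at least 1. The 3 windows had 13, 22 and 21 CpG dinucleotides in turn, against a median of 6 over all windows. None of these windows held CAGGTG on either strand, the E-box bound by Snail and Zeb repressors, which 17.2% of all windows held, nor TATAAA (12.4%) or AACCGGTT, a Grainyhead-like site (0.116%). A second annotated start of Pkp4 had 1 CAGGTG, 47 bases upstream, with 0 GC boxes and 32 CpG dinucleotides in its window. These are matches of letters and show nothing about binding.

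The desmosomal cadherins were close to absent in every sample. Dsg2, the desmoglein of simple epithelia and heart, had 14 and 2 counts in the double samples and 3, 3, 25, 3, 9 and 9 counts in triple samples 1 to 6, at most 0.802 CPM. Triple sample 3 was the highest, followed by double sample 1 at 0.566 CPM. Dsc2, the desmocollin of the same tissues, had 11 and 37 counts in the double samples and 8 to 31 in the triple samples, at most 1.33 CPM, and the groups overlapped. The log2 fold changes of -0.17 ± 1.00 for Dsg2 and -0.60 ± 0.63 for Dsc2 turned to 1.89 without double sample 1 and to 0.41 without double sample 2 in turn, and that of Dsg2 also to 0.19 when only total counts were used for scaling. Dsc3, a desmocollin of the lower layers of stratified epithelia, had 0 and 1 counts in the double samples and 2, 6, 14, 11, 0 and 2 counts in triple samples 1 to 6. The ratio of its pooled, scaled counts was 9.94 (triple over double), with an exact 95% counting interval from 1.67 to 404. That interval covers counting error only, not the spread between samples, and triple sample 5 also had 0 counts. Between samples the log2 fold change was 3.07 ± 1.66 (edgeR adjusted p = 0.256), and Dsc3 was not called. Dsc3 passed the filter on low counts only through triple samples 3 and 4, and was not tested without either of them. All 3 genes lie on chromosome 18, and the annotated antisense gene Gm16090, which overlaps Dsg2, had 0 counts in every sample.

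The other 6 mouse desmosomal cadherins, mostly genes of epidermis and hair, were not detected at a usable depth. Dsg1c had 8 counts over all 8 samples, Dsg1b 5, Dsg3 3, Dsg1a and Dsc1 1 each, and Dsg4 none, and no member of this list passed the filter on low counts. Summed over all 9 cadherins, the level was 0.12 to 0.373 CPM per kb of exon. The level of Jup per kb was 300 and 120 times the summed cadherins in the double samples and 28.2 to 128 times in the triple samples. Classical N-cadherin (Cdh2), which binds plakoglobin in adherens junctions, stood at 9.09 to 16.3 CPM per kb, and E-cadherin (Cdh1) at 0.43 to 1.55 CPM per kb.

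**Figure D3:**
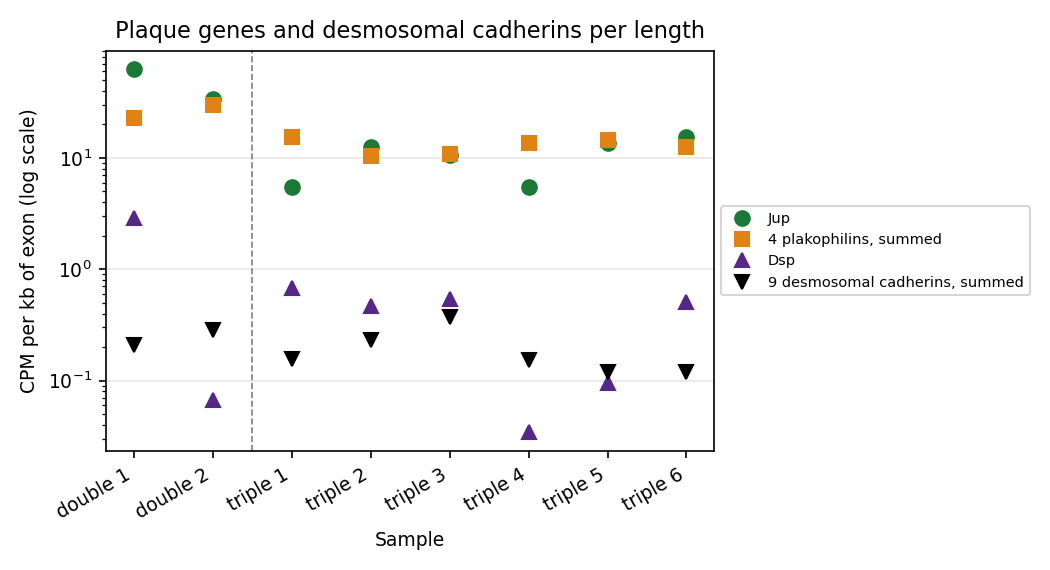
Level per kb of exon (CPM per kb, log scale) of Jup, of the 4 plakophilins summed, of Dsp and of all 9 desmosomal cadherins summed, in each sample; the dashed line parts double from triple samples. The cadherin sum lies between 0.12 and 0.373 in all 8 samples, at least 28.2-fold below Jup.

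Perp (chromosome 10, 18845020 to 18857073, plus strand) was high in a single sample. It stood at 66.7 CPM in double sample 1 and at 3.64 CPM in double sample 2, against 1.63, 1.27, 2.28, 4.24, 1.08 and 1.33 CPM in triple samples 1 to 6. The groups overlapped, since triple sample 4 lay above double sample 2. Perp passed the threshold, with a log2 fold change of -4.16 ± 0.81. However, the value was -0.89 without double sample 1 and -1.09 among samples with codes other than SN930. The call was also lost without triple sample 1 and with the description code as a term. The p63 gene Trp63, a regulator chosen here after its values were seen, stood at 24.1 and 3.32 CPM in the double group, against 0.0331 to 2.44 CPM in the triple samples (edgeR adjusted p = 0.105). Whether Trp63 has a part in the level of Perp was not tested.

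Markers of some other cell types were split between the samples as some of the members were. Of 10 myogenic precursor markers 9 fell and 0 rose, against 5.41% lower and 2.94% higher over all genes. The count was 4 without double sample 1 and 6 without triple sample 1 or triple sample 5, 5 within SN930 and 1 among the samples with other codes. Their summed level was 4470 and 1880 CPM in the double samples and 4.17 to 101 CPM in the triple samples, the same split as for Pkp1, Pkp2 and Jup. The 10 skeletal muscle markers summed to 65700 CPM in double sample 1, 2790 CPM in double sample 2 and 130 to 12000 CPM in the triple samples, and the 6 adipocyte markers to 1100, 34.2 and 3.41 to 177 CPM in turn, so both were highest in double sample 1, as were Dsp and Perp. The 10 heart muscle markers summed to 6190 and 862 CPM in double samples 1 and 2 and to 16.5 to 315 CPM in the triple samples, which again is the split of Pkp1, Pkp2 and Jup. Of the 8 tested, 2 fell (Tnnt2 and Myl4), 0 rose and 6 did not pass, and without double sample 1 none was called. Actn2, Tnnt2 and Myl4, which skeletal muscle or its precursors also express, made up most of that sum, at 3500, 1200 and 1470 CPM in double sample 1 and 72.2, 454 and 329 CPM in double sample 2. The atrial markers Myl7 and Nppa reached at most 0.0331 and 0.0949 CPM in any sample. The 12 keratinocyte markers summed to 32 CPM in double sample 1, where Dsp and Perp were also highest, to 39.2 CPM in triple sample 3 and to 6.37 to 9.18 CPM in the other 6 samples. Trp63 made up most of the sum in double sample 1, at 24.1 CPM, and Krt14 most of that in triple sample 3, at 30.8 CPM. Of the 5 keratinocyte markers tested 0 rose and 0 fell, Krt5 reached at most 0.0962 CPM, and Flg had no count. The 10 epithelial markers summed to 5.78 and 18.3 CPM in the double group and to 10 to 16.4 CPM in the triple samples. Whether other cells were present, and what part they had in the results, was not tested.

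Per kb of exon, the order of mean levels in the double samples was Jup (48.3), Perp (18), Pkp4 (10.5), Pkp1 (9.03), Pkp2 (6), Dsp (1.48), Pkp3 (0.612), Dsc2 (0.169), Dsg2 (0.0386) and Dsc3 (0.00334), all in CPM per kb. With 2 samples, Perp, Pkp4, Pkp1 and Pkp2 could not be ranked firmly: Perp was above the plakophilins in double sample 1 and below Pkp1, Pkp4 and Pkp2 in double sample 2. Dsp was likewise above Pkp3 and Dsc2 in double sample 1 and below both in double sample 2, at 0.0672 CPM per kb against 0.977 for Pkp3. In the triple samples the order was Pkp4 (11.5), Jup (10.5), Perp (1.01), Pkp2 (0.925), Pkp3 (0.437), Dsp (0.385), Dsc2 (0.111), Dsc3 (0.035), Dsg2 (0.0339) and Pkp1 (0.027). Pkp4 and Jup did not differ beyond their spread, as Jup lay above Pkp4 in 4 of the 6 triple samples and below it in triple samples 1 and 4. The neighbours Perp and Pkp2, Pkp2 and Pkp3, and Pkp3 and Dsp also changed places from sample to sample, as did Dsc3, Dsg2 and Pkp1 at the low end. In triple sample 4 Dsc2 lay below Dsc3 and above Dsp. Pkp4 and Jup lay above all other members in each triple sample.

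Variation among the 6 triple samples was not used to choose the members. On the log2 CPM scale the standard deviation (SD) was 1.65 for Dsp, 1.13 for Dsc3, 1.08 for Pkp2, 0.97 for Dsg2 and 0.94 for Pkp1, and 0.67 to 0.79 for Pkp3, Perp, Dsc2 and Jup. The median over all genes tested was 0.36. Dsp stood at percentile 96.4 of the genes tested, with a 19.6-fold range between triple samples 4 and 1. Pkp2 was at percentile 90.1 with an 8.76-fold range, whereas Pkp4 was at percentile 33.9 with an SD of 0.26 and a 1.55-fold range. Without triple sample 4 the SD was 1.10 for Dsp and 0.40 for Perp, and without triple sample 3 it was 0.61 for Dsg2. Pkp1 and the cadherins rest on few counts in these samples, and counting error is part of their SD.

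**Figure D4:**
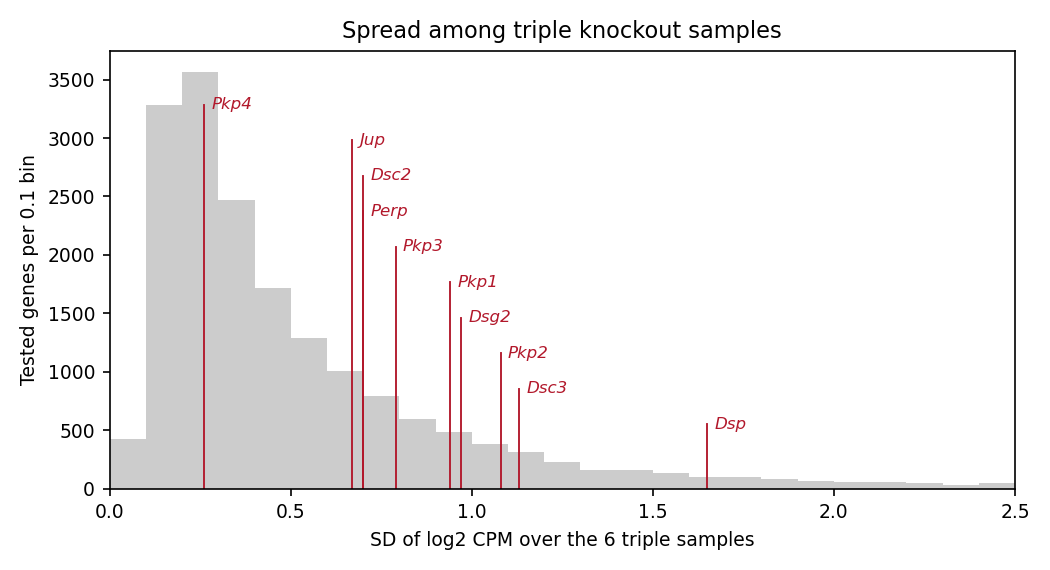
Number of tested genes (grey bars, bins of 0.1) by the SD of log2 CPM over the 6 triple samples, with each desmosome gene marked in red; genes beyond 2.5 lie outside the axis, and the height of a red line has no meaning. Pkp4 lies at 0.26, below the median of 0.36, and Dsp lies far to the right at 1.65.

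With 6 triple samples, no pair of members could be shown to vary together. Among the 6 members with a mean of at least 1 CPM there (Pkp2, Pkp3, Pkp4, Dsp, Jup and Perp), 15 pairs were compared on log2 CPM, and r was positive in 5. No pair reached an adjusted p of 0.05 by Pearson's r or by Spearman's rho (exact permutation tests over the 720 orderings, 2-sided, smallest possible p = 0.00278, Benjamini-Hochberg over 15 pairs), and 1 pair had an unadjusted Pearson p below it. That pair was Pkp2 and Dsp, with r = 0.833 (exact permutation p = 0.0222, adjusted p = 0.333) and rho = 0.543 (exact permutation p = 0.297, adjusted p = 0.891). Without the 2 samples farthest from the median of Pkp2, r was 0.727. Jup and Perp had the lowest r, at -0.706 (exact permutation p = 0.0986, adjusted p = 0.503; rho = -0.771, exact permutation p = 0.103, adjusted p = 0.68), and r was -0.775 without the 2 samples farthest from the median of Jup.

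Genes with the pattern most like that of Dsp and Pkp1 were sought over all 8 samples by Pearson's r of log2 CPM among 14603 genes, as a description. For Dsp these were Bbs9 (r = 0.983), Xbp1 (0.958), Raver2 (0.958), Apba3 (0.947) and Trpc1 (0.946). Bbs9 stood at 13 and 8.05 CPM in the double group, against 6.76 to 10.6 CPM in the triple samples, a far narrower range than Dsp. For Pkp1 they were Plxna2 (0.994), Iqsec3 (0.99), Clrn1 (0.986), Thop1 (0.985) and Exoc3l (0.98). Iqsec3, like Pkp1, had a wide gap between the groups, at 54.8 and 150 CPM in the double group, against 0.192 to 1.2 CPM in the triple samples. Thop1 had a far smaller gap, at 61.5 and 68.7 CPM against 36.2 to 46.9 CPM. All 8 points of each pair share their library and depth. For Pkp1, r over all 8 samples also takes in the split between the groups, so it does not show variation together within a group.

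The lists of related genes were written with earlier results of these data known and are read against the same 8.35% of genes called and the median log2 fold change of 0.02 over all genes. Among other plakins and armadillo relatives, 9 were tested: 0 rose, 1 fell and 8 did not pass, with a median of 0.23. The gene that fell was Macf1, a giant plakin that links microtubules and actin, by 1.06 ± 0.21 on the log2 scale (edgeR adjusted p = 0.023), from 812 and 668 CPM to 275 to 438 CPM. Of 15 adherens junction genes tested, 1 rose, 1 fell and 13 did not pass (median 0.13). M-cadherin, Cdh15, the cadherin of muscle precursors and satellite cells, is also on the list of myogenic precursor markers. It stood at 333 and 342 CPM against 0.232 to 4.65 CPM and fell by 7.39 ± 0.79 (adjusted p = 0.00259). Nectin1, which starts adherens junctions, rose by 1.62 ± 0.41 (adjusted p = 0.0454), from 7.2 and 19 CPM to 30.9 to 55.6 CPM.

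Intermediate filaments, to which the plaque is anchored, gave few calls among the keratins. Of 17 keratins 7 were tested, and 0 rose, 1 fell and 6 did not pass (median -0.28). Krt80, a keratin found near desmosomal plaques, stood at 92.6 and 5.92 CPM in the double group, against 2.15 to 5.64 CPM in the triple samples, a fall of 3.66 ± 0.71 (edgeR adjusted p = 0.0214), and at -0.61 without double sample 1. Krt8, a partner of desmoplakin in simple epithelia and chosen after its values were seen, stood at 16.5 and 798 CPM in the double group (samples 1 and 2), against 1.23 to 179 CPM in the triple samples (adjusted p = 0.217). Thus Krt8 was highest in double sample 2, where Dsp was at 0.649 CPM. Of 6 other intermediate filament genes 0 rose, 2 fell and 4 did not pass (median -2.11). Nestin (Nes), a filament of precursor cells, fell by 3.23 ± 0.54 (adjusted p = 0.013), and syncoilin (Sync), a muscle filament protein, fell by 3.01 ± 0.58 (adjusted p = 0.0206).

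Hemidesmosomes, which anchor keratin to the basement membrane, were represented by 7 tested genes: 0 rose, 1 fell and 6 did not pass (median -0.13). Lamb3, a chain of laminin-332, stood at 9.06 and 15 CPM in the double group, against 0.265 to 0.633 CPM in the triple samples, and fell by 4.88 ± 0.39 (edgeR adjusted p = 0.00111). Among 15 tested transcription regulators of epithelial junctions 1 rose, 1 fell and 13 did not pass (median 0.19). Twist2, a factor of mesenchymal cells, rose by 3.69 ± 0.68 (adjusted p = 0.0187), from 1.78 and 1.77 CPM to 6.49 to 37.1 CPM. Klf5, a factor of epithelial progenitors, fell by 1.96 ± 0.42 (adjusted p = 0.0288). Of 15 genes that act in desmosome turnover and modification 1 rose, 1 fell and 13 did not pass (median -0.13). Prkca, the protein kinase C that loosens desmosomal adhesion, rose by 1.00 ± 0.24 (adjusted p = 0.0414), from 84.7 and 51.6 CPM to 110 to 161 CPM. Atp2a2, the calcium pump mutated in Darier disease, was called lower (-3.12 ± 0.67, adjusted p = 0.0287), but stood at 6300 CPM in double sample 1 and at 376 CPM in double sample 2, within the triple range of 314 to 463 CPM, and gave 0.02 without double sample 1.

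**Figure D5:**
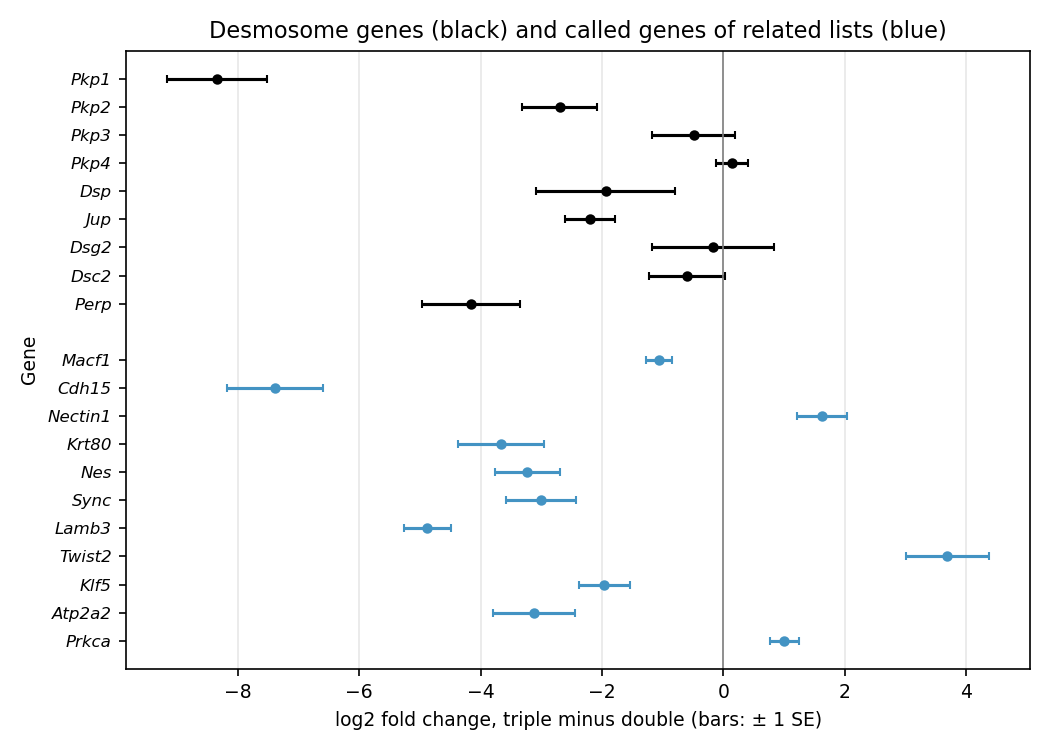
log2 fold change, triple minus double, with bars of 1 SE, for 9 desmosome genes (black) and the 11 called genes of the related lists (blue); Dsc3 is left out because the double samples held 1 count. Pkp1 (-8.34) and Cdh15 (-7.39) lie farthest to the left, and Twist2 (3.69) farthest to the right.

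Among the 11 called genes of these lists, Cdh15 and Lamb3 kept their call without double sample 1, and the other 9 lost it. Nectin1 and Atp2a2 also lost it in each fit that left out 1 triple sample, Klf5 in 3 of these and Krt80 and Sync in 1, and Prkca in every fit that left out 1 sample.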

How the data were processed

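RNA-seq of 8 samples was used as deposited by the authors: 1 table of whole-number counts for each sample, with a row per Ensembl gene. HTSeq, DESeq2 and the builds mm10 and GRCm38 are named in the submitters' processing notes with no role; aligner, annotation release and strand setting are not stated there. Symbols were matched for 52403 of 52636 genes. The members' positions in the tables equal those of GENCODE M21 (GRCm38), from which merged exon lengths were taken. Low counts were removed by filterByExpr, TMM factors scaled the libraries, and the quasi-likelihood test of edgeR 4.0.16 (R 4.3.3) compared the 6 triple with the 2 double samples, with a Benjamini-Hochberg adjusted p of 0.05 over 17709 genes. All 10 members passed the filter, Dsc3 only through triple samples 3 and 4. SEs were derived from the test statistic, and log2 CPM used a prior count of 2. The tests were checked on simulated counts. These held no sample that stood apart as double sample 1 did, so the check does not cover that case.

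The members and lists were chosen with earlier results of these data known. All members are named, with up to 4 called genes of each related list (2 by p where none was called) and the 5 genes most like Dsp and Pkp1 by Pearson's r among genes with a mean of at least 1 CPM. One listed gene, Eppk1, was not analysed here. Alternatives were DESeq2 1.42.0, RLE or total-count scaling, 2 other filters on low counts, the description code as a term (SN930 against all other codes), fits of the SN930 samples alone and of the 4 samples with other codes alone (4 different codes, 1 sample each), and leaving out each sample. Counting intervals cover counting error only.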

Additional observations from a re-analysis of the deposited data

Results flagged for a closer look

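Of 21 genes examined for a triple sample far from the other 5 (the 10 members and 11 genes of related lists), 1 was found: Dsg2 in triple sample 3, at 0.802 CPM (25 counts, exact 95% Poisson interval 16.2 to 36.9) against 0.0949 to 0.3 CPM (3 to 9 counts) in the other triple samples. Chance marks about 1 in 20 groups in this way. Triple sample 3 also had the highest sum of 12 mesothelial markers, 1090 CPM against 109 to 369 CPM in the other triple samples, and their part in the Dsg2 value was not tested.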

How the results depend on the processing

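No paired analysis was made, because the groups are 2 and 6 samples of different genotype and the labels used link no double sample to a triple sample. Against 1478 genes called by edgeR, DESeq2 called 3348, scaling by total counts 969, SN930 against the rest as a term 962 and the samples with other codes alone 1, and leaving out 1 sample gave 315 (without double sample 1) to 5579 (without double sample 2). Scaling by total counts moved the median log2 fold change of all genes from 0.02 to 0.21 and the share of calls that were higher from 35.2% to 43.9%. Of the members, 4 were called, 2 with that term, 2 within SN930, 0 among other codes and 1 to 4 with 1 sample left out. With 1 sample left out the lists gave 0 to 2 calls for plakins and armadillo relatives, 1 to 3 for adherens junctions, 0 to 1 for keratins, 0 to 4 for other filaments, 1 to 3 for hemidesmosomes, 0 to 7 for transcription regulators and 0 to 9 for turnover genes. DESeq2 called 2 plakins and armadillo relatives, 4 adherens junction genes, 4 other filament genes, 2 hemidesmosome genes, 5 transcription regulators and 5 turnover genes. Total counts gave 0 calls for plakins and 1 for adherens junctions; no filter gave 2 keratins and 1 turnover gene; RLE factors gave 1 turnover gene. The SN930 term gave 1 call for adherens junctions, 0 for keratins and 0 for turnover genes. SN930 alone gave 2 plakin and 2 hemidesmosome calls, and other codes alone gave 0 in each of these 7 lists.

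The sign of the log2 fold change reversed for Dsg2 with total counts (0.19), for Pkp3 (1.04) and Pkp4 (-0.13) within SN930, and for Dsp (3.03), Dsg2 (2.13) and Atp2a2 (0.02) among the samples with other codes. It reversed without double sample 1 for Dsp (2.51), Dsg2 (1.89) and Atp2a2 (0.02), and without double sample 2 for Pkp3 (0.84), Pkp4 (-0.21) and Dsc2 (0.41). With the other double sample left out instead, the values were -2.90 for Dsp, -0.99 for Dsg2, -4.02 for Atp2a2, -1.18 for Pkp3, 0.61 for Pkp4 and -1.18 for Dsc2. The cause was not tested. Pkp1, Pkp2, Jup and Perp stayed lower in each of these fits. Each fit on SN930 or on the other codes holds 1 double sample, so the code and that sample cannot be told apart there, and with 1 double sample left its spread is assumed to equal that of the triple samples. The SD of Dsp over the triple samples was 1.10 to 1.79 with 1 of them left out, and 0 of 15 pairs passed with a prior count of 0.5 or with total counts.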

Other observations

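Several keratin, mucin and plakin genes were highest in triple sample 3. Krt19 stood at 52.9 CPM there and at most 0.733 CPM elsewhere, Krt14 at 30.8 CPM against at most 0.823 CPM, and the mucin gene Muc16 at 95.7 CPM against at most 0.133 CPM. The plakin gene Ppl, whose product periplakin sits at desmosomal plaques, stood at 28.7 CPM there and at 0.933 to 8.82 CPM elsewhere. Other epithelial genes were not highest there: Krt8 stood at 24.2 CPM against 798 CPM in double sample 2, Krt18 at 54.3 CPM against 203 CPM, Cdh1 at 3.01 CPM against 7.06 CPM in triple sample 1, and the 10 epithelial markers summed to 10.3 CPM against 5.78 to 18.3 CPM over all samples. Dsc3 (14 counts) was also highest in this sample, whereas Dsp (5.2 CPM), Jup (67.8 CPM) and Pkp2 (3.14 CPM) lay within the range of the other triple samples. These genes were chosen after their values were seen.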
